A study of Mus musculus with 12 samples.

Results

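The cyclins, cyclin-dependent kinases (CDKs), CDK inhibitors, pocket proteins and E2F transcription factors that drive and brake the cell cycle were followed in mouse skin and in ultraviolet-induced cutaneous squamous cell carcinoma (cSCC). Members were the protein-coding genes whose symbol is Cdk, Ccna, Ccnb, Ccnd, Ccne or E2f with a number, or begins with Cdkn and a number, with Ccnf, Rbl1, Rbl2, Wee1, Pkmyt1, Cdc25a, Cdc25b and Cdc25c added by name. Rb1, which the rule also names, was not analysed here. The rule found 52 genes among 34303 gene symbols, of which 22311 were protein-coding. Cdkn2aip and Cdkn2aipnl entered by their symbols alone, since they encode a protein that binds the Cdkn2a product and a relative of it.

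RNA sequencing was available for 12 libraries from C57Bl6 mice. WT skin (n = 3) and TAp63-/- skin (n = 3) were untreated dorsal skin taken from shaved mice at 4 weeks of age. WT cSCC (n = 2) and TAp63-/- cSCC (n = 4) were tumours from mice older than 35 weeks that had received chronic ultraviolet radiation, 2.5 kJ/m2, 3 times a week. TAp63-/- mice lack the isoforms of p63 that have an N-terminal transactivation domain, called TAp63. The 12 titles each hold their own identifier, prefixed by genotype, but nothing in the labels states that these are separate animals. Nor do they say how the allele was made or whether tissue was pooled. The p-values therefore measure the spread between these samples, which may be technical. Tumour and skin also differ in age, in ultraviolet exposure and in the start of their titles, LM for tumours and Su_R for skin. None of these can be told apart from tissue in the comparisons between them.

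D cyclins with Cdk4 and Cdk6, and later E cyclins with Cdk2, phosphorylate the pocket proteins, which then release the E2F factors to switch on genes for DNA replication. A cyclins carry the cell through S phase, and B cyclins with Cdk1 bring it into mitosis once Cdc25 phosphatases have removed the inhibitory phosphates placed by Wee1 and Pkmyt1. The Ink4 inhibitors bind Cdk4 and Cdk6, and the Cip/Kip inhibitors act on several cyclin-CDK complexes. In skin, proliferation is normally confined to the basal layer of the epidermis and to the growing hair follicle.

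Levels are given as FPKM, fragments scaled by transcript length and by library size, in the order of the replicates. Changes are log2 differences of FPKM + 1 with their standard error (SE), which understates the change of genes with low values. Each adjusted p is from limma, two-sided, with Benjamini-Hochberg adjustment over the 14752 genes that reached 1 FPKM in 2 or more libraries, and a gene was called at an adjusted p below 0.05. Of the members, 50 passed that filter. Ccna1, the germ-line A cyclin, was listed at 0 in all libraries but 1, where it stood at 0.0705 FPKM (TAp63-/- skin replicate 1). Ccnb3 was listed at 0 in all 12.

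The libraries had 13019 to 13073 genes at 1 FPKM or more, and their read depth is unknown. The libraries of a group correlated at 0.9293 to 0.9693 in WT skin, 0.9159 to 0.9611 in TAp63-/- skin and 0.8681 to 0.9166 in TAp63-/- cSCC, and the 2 WT tumours at 0.8643. Trp63, which encodes p63, ranged from 84.5 to 119 FPKM in skin and from 97.3 to 258 in tumours, a sum over TA and other isoforms that does not check the genotype labels. Basal keratinocyte markers (7 of 7 tested) summed to between 2861 and 4220 FPKM in skin and between 7739 and 19204 in tumours. Of them, 1 was called higher and 1 lower in WT cSCC, and 4 higher and 1 lower in TAp63-/- cSCC. Suprabasal keratinocyte markers (7 of 7) summed to 3023 to 8772 in skin and 750 to 6224 in tumours, with 2 called lower in WT and 5 in TAp63-/- cSCC. Skeletal muscle markers (15 of 15 present) summed to 10701 to 17238 in skin and 89.9 to 1071 in tumours. Adipocyte markers (9 of 9) summed to 695 to 4145 in skin and 61.0 to 2714 in tumours, fibroblast markers (9 of 9) to 2461 to 8835 and 843 to 2609, and melanocyte markers (7 of 7) to 30.0 to 210 and 2.95 to 52.7. Between TAp63-/- cSCC and skin, 15 of 15 muscle, 7 of 9 adipocyte, 7 of 9 fibroblast and 7 of 7 melanocyte markers were called lower, and between WT cSCC and skin 13, 3, 4 and 3. Endothelial markers (6 of 6) summed to 41.8 to 61.9 in skin and 46.7 to 66.1 in tumours. Leukocyte markers (11 of 13 present were tested) summed to 455 to 1093 in skin and 530 to 21746 in tumours. They went both ways, with 6 changes above 0 and 5 below in each genotype and medians of 0.35 (WT) and 0.19 (TAp63-/-). Of them, 2 were called higher in WT and 3 in TAp63-/- cSCC, and 0 lower. Hair matrix and shaft markers (15 of 15 present) summed to 24.5 to 4617 in skin and 20.6 to 3181 in tumours. No marker of these lists was at 0 in every library. By Xist and Y-linked genes the skin was male throughout (6 libraries), while 5 of the 6 tumours were female and TAp63-/- cSCC replicate 1 was male. In bulk tissue, fewer cells of a type and less RNA per cell cannot be told apart, and the part that cell makeup and sex have in the results below was not tested beyond the values given.

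Tumours differed from skin in both directions within the cell cycle machinery. In WT mice, Cdkn2a, E2f7, Ccne1, Cdk17 and Cdk8 were higher in cSCC than in skin, and Cdkn2c was lower. These are 6 of 50 members (12%), beside 11.4% of all tested genes called. In TAp63-/- mice, 10 members were higher and 6 lower, which is 32% beside 27.2% of all tested genes. The called share of the members was thus close to the background in both comparisons. By direction, 10% of the members were called higher in WT cSCC beside 4.66% of all genes, and 20% were called higher in TAp63-/- cSCC beside 13%. At an unadjusted p below 0.05 there were 19 members (38%) in WT mice, beside 28.1% of all genes, and 29 (58%) in TAp63-/- mice, beside 40.2%. The median change of the members was 0.40 in WT and 0.45 in TAp63-/- mice, where that of all tested genes was 0.04 and 0.10. A change above 0 was found in 36 members (72%) in WT and 37 (74%) in TAp63-/- mice, beside 52.8% and 56.1% of all genes. Within WT mice 23 members (46%) had both tumours above all skin libraries, beside 27.3% of all genes, and 7 (14%) below, beside 25.5%. Within TAp63-/- mice 18 (36%) had all tumours above, beside 17.8%, and 8 (16%) below, beside 16.2%.

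Setting all 6 tumours beside all 6 skin libraries, 13 members (26%) had every tumour above every skin library, beside 11% of all tested genes. They were Ccne1, Ccnf, Cdk5, Cdk6, Cdk8, Cdk12, Cdk13, Cdk17, Cdkn2a, Cdkn2aipnl, Cdkn3, E2f7 and E2f8. The reverse held for Ccnd2, Cdk19, Cdkn1b, Cdkn1c and Cdkn2c, 5 members (10%), beside 10.9% of all genes. Markers of muscle, adipocytes, fibroblasts and melanocytes were lower between the same groups. Their median changes were -4.44, -3.18, -1.48 and -2.76 in WT mice and -5.80, -3.81, -1.95 and -2.61 in TAp63-/- mice. Suprabasal keratinocyte markers (-1.46 in WT and -2.58 in TAp63-/- mice) and hair matrix and shaft markers (-1.74 and -1.61) also had negative medians. The part of all these cell types in the lower values of Ccnd2, Cdk14, Cdk19, Cdkn1b, Cdkn1c, Cdkn2c and E2f2 was not tested.

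The WT count rests on 2 tumours. Without WT cSCC replicate 1, it fell to 1 member, Cdk17, and without WT cSCC replicate 2, the tumour with the highest hair marker level, it was 12. In such fits the remaining tumour is assumed to vary like the other groups. Beyond hair, WT cSCC replicate 2 had the highest tumour means, as log2(FPKM + 1), of muscle (5.42), adipocyte (4.97), suprabasal keratinocyte (6.95) and melanocyte markers (2.71). It correlated at 0.8359 to 0.8812 with WT skin, 0.8643 with the other WT tumour and 0.8424 to 0.9025 with TAp63-/- tumours. The part of these cells in the shift was not tested. Leaving out WT skin replicate 1 or replicate 3 gave 3. With sex as a covariate, an alternative chosen after the data were seen, 1 member was called in WT mice (Ccne1). In TAp63-/- mice it was 7, 5 of them among the 16. Within WT mice sex and tissue cannot be told apart, as the skin was male and both tumours female. The sex term thus rests on 1 male tumour, TAp63-/- cSCC replicate 1, beside the female tumours of its group.

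**Figure D1:**
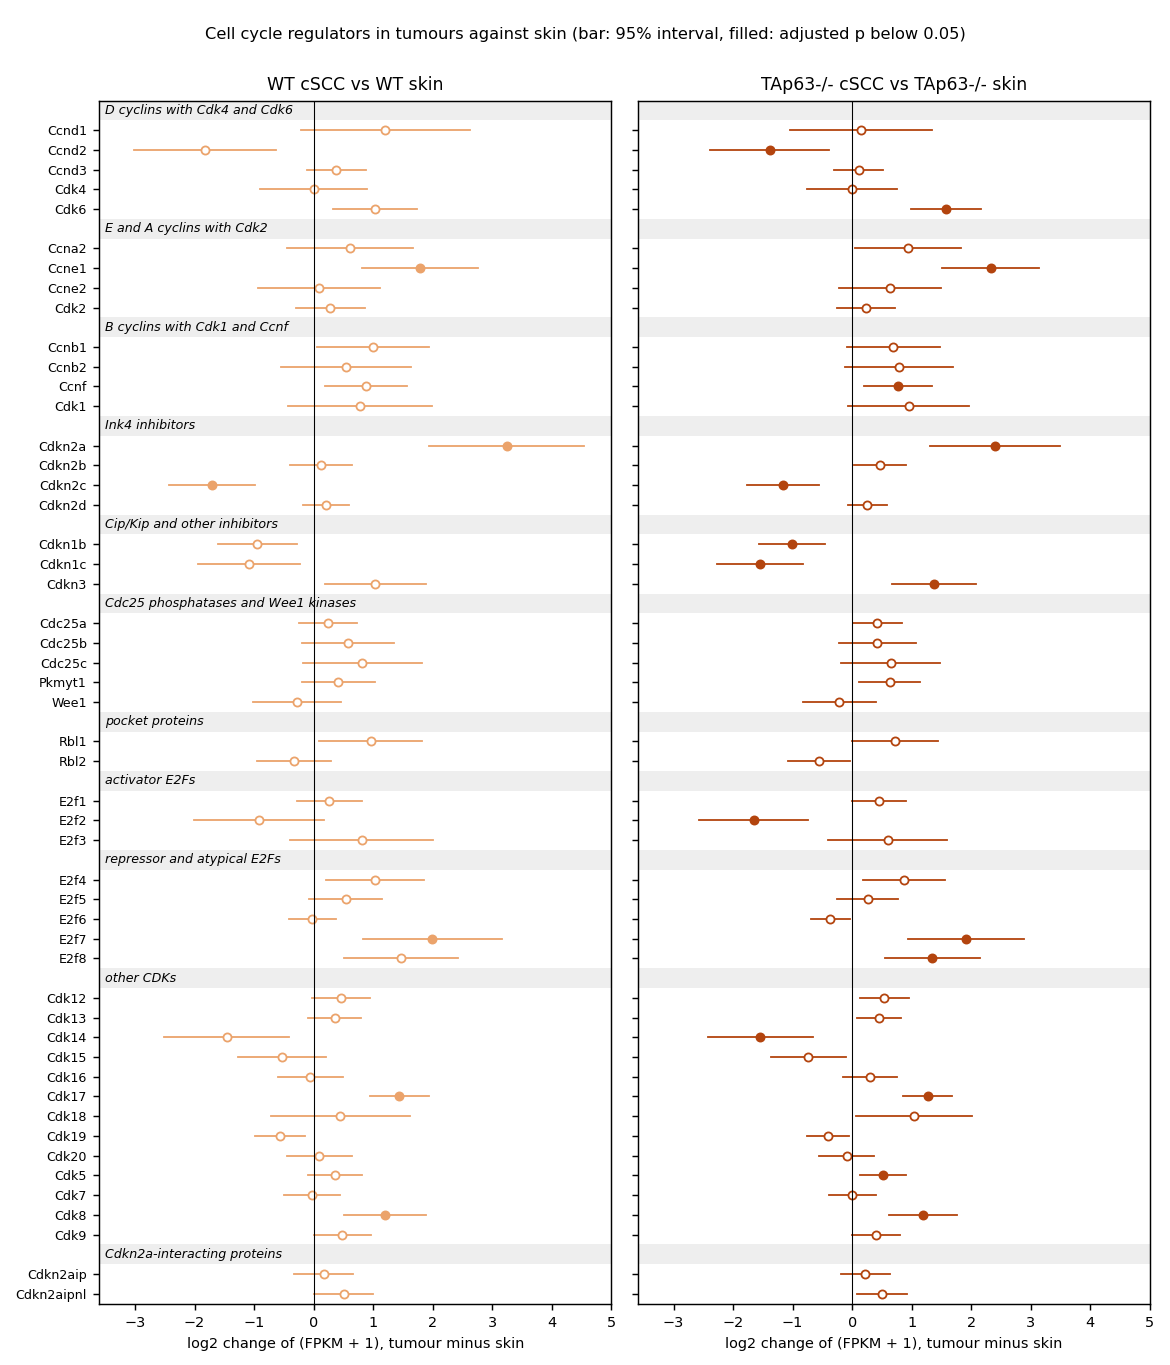
Log2 change of FPKM + 1 between tumour and skin for the 50 tested members, by role, in WT mice (left) and TAp63-/- mice (right). Points are limma estimates, bars 95% intervals, and filled points an adjusted p below 0.05; Cdkn2a, Ccne1 and E2f7 lie furthest to the right in both panels, and Cdkn2c is the member called lower in both.

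Among the D cyclins and their kinases, Ccnd2 fell and Cdk6 rose in TAp63-/- cSCC, while Cdk4 and Ccnd3 showed no call. Ccnd2, a D cyclin, stood at 91.5, 102 and 92.2 FPKM in WT skin, 82.5, 100.1 and 81.9 in TAp63-/- skin, 17.3 and 39.4 in WT cSCC, and 30.7, 71.7, 13.1 and 40.1 in TAp63-/- cSCC. Every tumour was below every skin library, and the tumours spread over a wider range than the skin. Its change was -1.38 (SE 0.45, adjusted p = 0.0433) in TAp63-/- mice and -1.82 (SE 0.54, adjusted p = 0.053) in WT mice. The TAp63-/- call was lost when any one of 6 of the 7 libraries was left out (adjusted p 0.061 to 0.12), the exception being TAp63-/- cSCC replicate 2, and with sex as a covariate (0.2).

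Ccnd1, the D cyclin often amplified in squamous carcinomas, stood at 27.9, 38.8 and 23.3 FPKM in WT skin and at 25.2, 49.1 and 53.1 in TAp63-/- skin. In tumours it was 153 and 30.6 (WT) and 25.8, 92.1, 43.4 and 39.0 (TAp63-/-). WT cSCC replicate 1 and TAp63-/- cSCC replicate 2 were above all skin libraries, and the other 4 tumours lay within the skin range. The changes of 1.20 (SE 0.64, adjusted p = 0.251) and 0.15 (SE 0.54, adjusted p = 0.861) were not called, although without WT cSCC replicate 2 the WT value was 2.34 (adjusted p = 0.0365).

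Ccnd3, the third D cyclin, was 11.0, 13.7 and 13.3 FPKM in WT skin, 15.6, 13.2 and 17.7 in TAp63-/- skin, 14.8 and 18.9 in WT cSCC, and 18.6, 15.0, 13.3 and 20.8 in TAp63-/- cSCC. All groups overlapped, apart from the WT tumours, which were both above WT skin. Per length, the D cyclin RNA changed in makeup: Ccnd2 made up 53.7% to 71.6% of the summed D cyclin FPKM in skin (median 66.5%) and 9.35% to 44.3% in tumours (median 40.1%). The Ccnd1 share was 18.1% to 34.8% in skin (median 23.3%) and 34.4% to 82.7% in tumours (median 45.3%). The Ccnd2 shares of tumours and skin did not overlap, while the Ccnd1 shares did.

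**Figure D2:**
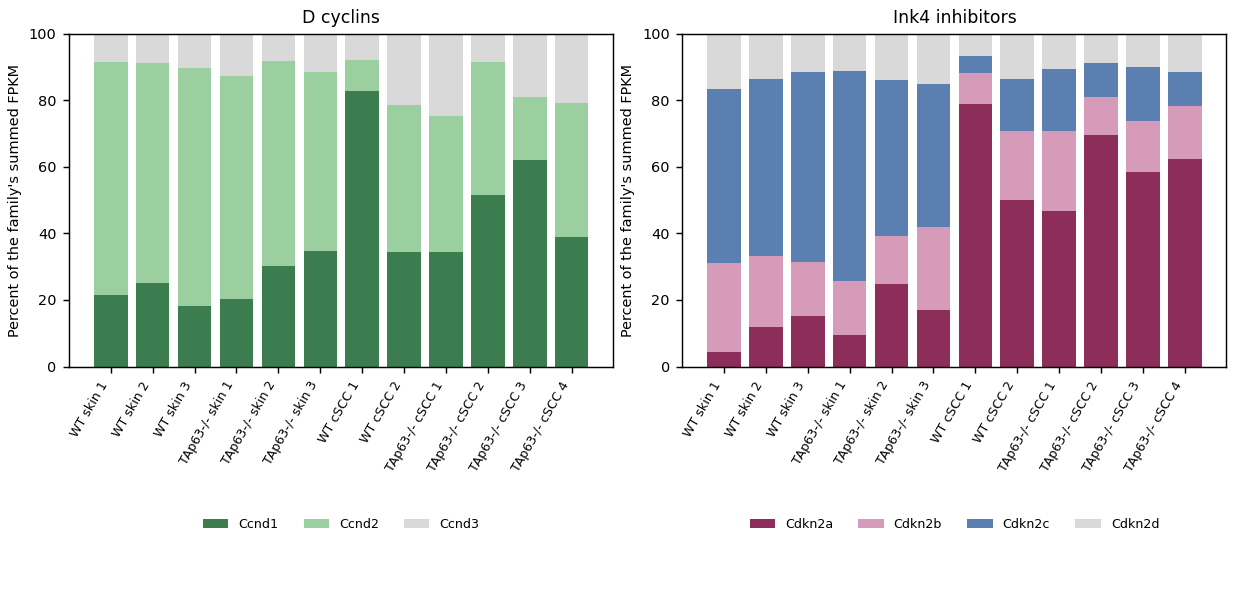
Share of each D cyclin (left) and each Ink4 inhibitor (right) in the family's summed FPKM, in percent, for each of the 12 libraries. Ccnd2 takes at least 53.7% in every skin library and at most 44.3% in every tumour, and Cdkn2a takes at most 24.7% in skin and at least 46.8% in tumours.

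Cdk4, the main kinase partner of the D cyclins, had the highest mean FPKM of all members in all 4 groups. It stood at 126, 115 and 87.4 FPKM in WT skin, 62.1, 126 and 134 in TAp63-/- skin, 158 and 74.0 in WT cSCC, and 102, 140.0, 71.9 and 102 in TAp63-/- cSCC. Tumours and skin covered much the same range, with a change of 0.00 (95% interval -0.91 to 0.90) in WT and -0.01 (-0.76 to 0.75) in TAp63-/- mice. Cdk6, the paralogous kinase, was 5.82, 7.14 and 8.92 in WT skin, 6.99, 8.84 and 6.22 in TAp63-/- skin, 21.3 and 11.6 in WT cSCC, and 15.7, 28.6, 29.6 and 23.9 in TAp63-/- cSCC. No tumour overlapped skin. The change was 1.58 (SE 0.27, adjusted p = 0.00165) in TAp63-/- mice and 1.03 (SE 0.32, adjusted p = 0.0602) in WT mice, and the first had an adjusted p of 0.0806 with sex as a covariate. Cdk6 thus took 4.40% to 10.1% of the summed Cdk4 and Cdk6 FPKM in skin and 11.9% to 29.2% in tumours.

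Ccne1 rose in tumours of both genotypes, while its paralogue Ccne2 was not called in either. Ccne1, the cyclin that activates Cdk2 at the start of S phase, lies at chr7:38097984-38107534 (mm10). It stood at 2.29, 2.80 and 0.910 FPKM in WT skin, 0.584, 1.91 and 2.31 in TAp63-/- skin, 8.96 and 8.89 in WT cSCC, and 21.4, 7.42, 10.4 and 10.1 in TAp63-/- cSCC. The lowest tumour was well above the highest skin library. Its change was 2.33 (SE 0.37, adjusted p = 0.00112) in TAp63-/- mice, called under every alternative tried, and 1.79 (SE 0.44, adjusted p = 0.0269) in WT mice. The WT call was lost without WT cSCC replicate 1 (adjusted p = 0.139) or replicate 2 (0.0705) and without WT skin replicate 1 (0.0533) or replicate 3 (0.0965).

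Ccne2 was the more abundant E cyclin per length in every library. It was 38.8, 49.7 and 57.2 FPKM in WT skin, 21.0, 22.6 and 52.1 in TAp63-/- skin, 56.2 and 45.9 in WT cSCC, and 34.8, 38.3, 35.8 and 94.6 in TAp63-/- cSCC. Apart from TAp63-/- cSCC replicate 4, the tumours stayed within the range of skin, and the changes were 0.08 (SE 0.47, adjusted p = 0.932) and 0.64 (SE 0.39, adjusted p = 0.242). The Ccne1 share of the 2 E cyclins went from 1.57% to 7.78% in skin to 9.64% to 38.0% in tumours.

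Ccna2, the A cyclin of dividing somatic cells, was 15.4, 17.6 and 13.1 FPKM in WT skin, 5.09, 15.8 and 22.6 in TAp63-/- skin, 31.3 and 18.2 in WT cSCC, and 17.1, 28.5, 27.6 and 27.5 in TAp63-/- cSCC. TAp63-/- skin held both the lowest and the highest skin value, and the changes of 0.61 (adjusted p = 0.442) and 0.94 (adjusted p = 0.106) were not called. Cdk2, the kinase bound by E and A cyclins, stood at 15.5, 14.1 and 13.5 FPKM in WT skin, 10.3, 12.7 and 17.3 in TAp63-/- skin, 20.6 and 15.1 in WT cSCC, and 14.2, 13.3, 14.2 and 22.3 in TAp63-/- cSCC. Tumours and skin overlapped, and neither change was called (0.28 and 0.24).

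The mitotic B cyclins and Cdk1 were higher on average in tumours, but of this class Ccnf in TAp63-/- mice was the one call. Ccnb1 was 17.3, 16.3 and 13.0 FPKM in WT skin, 7.26, 15.3 and 23.6 in TAp63-/- skin, 46.0 and 22.0 in WT cSCC, and 17.6, 21.5, 28.5 and 26.5 in TAp63-/- cSCC. Both WT tumours were above WT skin, whereas TAp63-/- tumours overlapped TAp63-/- skin through its replicate 3. The changes were 1.001 (SE 0.43, adjusted p = 0.153) and 0.69 (SE 0.36, adjusted p = 0.172). Cdk1, the mitotic kinase, was 50.5, 43.2 and 30.2 FPKM in WT skin, 17.3, 36.3 and 55.0 in TAp63-/- skin, 118 and 41.7 in WT cSCC, and 35.3, 68.5, 92.4 and 75.1 in TAp63-/- cSCC. One tumour of each genotype lay within the skin range, and the changes were 0.78 (adjusted p = 0.385) and 0.95 (adjusted p = 0.148).

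Ccnf, a cyclin that serves as the substrate receptor of a ubiquitin ligase and binds no known CDK, stood at 3.53, 3.28 and 2.29 FPKM in WT skin and 1.70, 2.58 and 4.13 in TAp63-/- skin. In cSCC it was 8.41 and 4.75 (WT) and 4.69, 4.63, 4.998 and 7.09 (TAp63-/-), with no overlap with skin. Its change was 0.77 (SE 0.26, adjusted p = 0.0496) in TAp63-/- mice and 0.88 (SE 0.31, adjusted p = 0.0942) in WT mice. The call stood at the threshold and was lost on leaving out any TAp63-/- library but skin replicate 3 (adjusted p 0.0524 to 0.198).

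**Figure D3:**
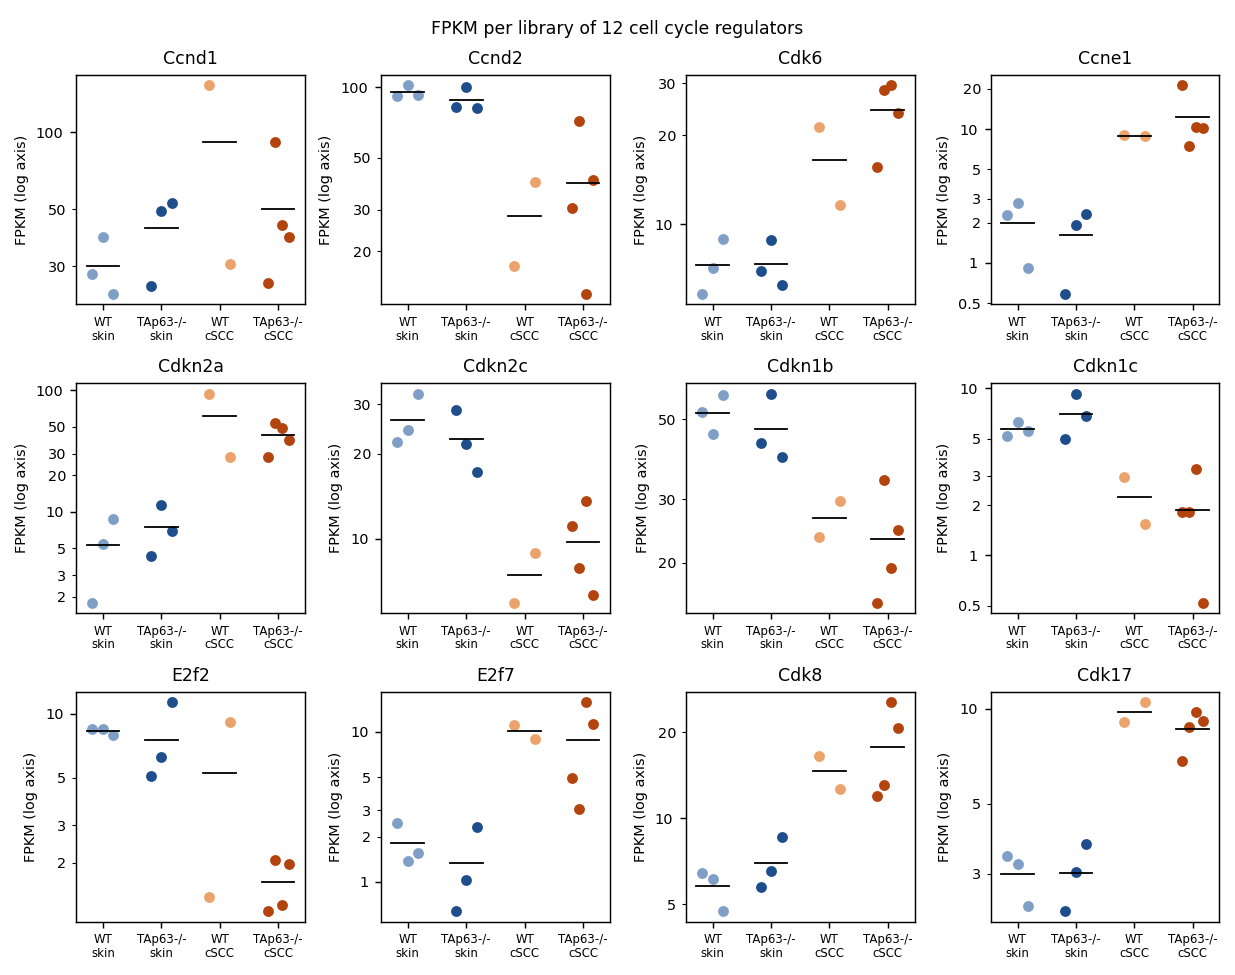
FPKM on a log axis of 12 members in every library, by group; lines mark group means. Cdk6, Ccne1, Cdkn2a, E2f7, Cdk8 and Cdk17 have all tumours above all skin libraries, Ccnd2, Cdkn2c, Cdkn1b and Cdkn1c all tumours below, and Ccnd1 and E2f2 overlap.

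The Ink4 inhibitors changed in opposite directions: Cdkn2a rose and Cdkn2c fell in tumours of both genotypes, and Cdkn2b and Cdkn2d were not called. Cdkn2a (chr4:89274473-89294653, mm10) has separate first exons for Ink4a, which inhibits Cdk4 and Cdk6, and Arf, which stabilises p53, and its FPKM sums both. The 250 bases before each RefSeq start (GRCm38.p6, minus strand, 5′ to 3′) are shown because the gene-level value does not separate them. Capitals mark a match to an E2F motif, found 99 bases before the Arf start at chr4:89294620-89294869, and none was found in the Ink4a window at chr4:89282193-89282442.
Cdkn2a, Arf start: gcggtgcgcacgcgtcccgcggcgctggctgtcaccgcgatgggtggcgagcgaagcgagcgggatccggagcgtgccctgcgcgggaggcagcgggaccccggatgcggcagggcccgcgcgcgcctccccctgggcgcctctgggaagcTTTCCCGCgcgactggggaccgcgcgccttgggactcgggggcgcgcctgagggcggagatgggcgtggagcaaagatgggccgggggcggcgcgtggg
Cdkn2a, Ink4a start: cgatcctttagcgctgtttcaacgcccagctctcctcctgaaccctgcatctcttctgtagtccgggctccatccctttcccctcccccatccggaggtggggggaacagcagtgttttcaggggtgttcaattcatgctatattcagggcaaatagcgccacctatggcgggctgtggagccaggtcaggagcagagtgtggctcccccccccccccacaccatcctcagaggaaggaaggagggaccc

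Cdkn2a stood at 1.79, 5.37 and 8.70 FPKM in WT skin, 4.28, 11.4 and 6.90 in TAp63-/- skin, 93.6 and 28.2 in WT cSCC, and 28.1, 53.9, 49.0 and 38.7 in TAp63-/- cSCC. Every tumour was above every skin library, with WT cSCC replicate 1 highest. The change was 3.24 (SE 0.59, adjusted p = 0.00689) in WT mice, the largest of any member there, and 2.39 (SE 0.50, adjusted p = 0.00538) in TAp63-/- mice. Without WT cSCC replicate 1 the WT adjusted p was 0.0865, and with sex as a covariate the TAp63-/- adjusted p was 0.134.

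Cdkn2c, which encodes the Ink4 protein p18, lies at chr4:109660876-109667189. It was 22.1, 24.4 and 32.8 FPKM in WT skin, 28.7, 21.8 and 17.3 in TAp63-/- skin, 5.93 and 8.89 in WT cSCC, and 11.1, 7.87, 13.6 and 6.32 in TAp63-/- cSCC. All tumours were below all skin libraries. Its change was -1.71 (SE 0.33, adjusted p = 0.00821) in WT mice and -1.16 (SE 0.27, adjusted p = 0.0104) in TAp63-/- mice. The WT call was lost without WT cSCC replicate 1 (adjusted p = 0.0933), and the TAp63-/- call without TAp63-/- skin replicate 1 (0.0524) or with sex as a covariate (0.17).

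Cdkn2b, the neighbour of Cdkn2a that encodes p15, was 11.5, 9.75 and 9.40 FPKM in WT skin, 7.32, 6.67 and 10.1 in TAp63-/- skin, 10.9 and 11.5 in WT cSCC, and 14.4, 8.83, 13.0 and 10.04 in TAp63-/- cSCC. Its tumour and skin values overlapped, with changes of 0.13 (adjusted p = 0.773) and 0.48 (adjusted p = 0.0989). Cdkn2d, which encodes p19Ink4d, stayed between 5.07 and 8.34 FPKM in all 12 libraries. Within the Ink4 family, the Cdkn2a share of summed FPKM was 4.21% to 24.7% in skin (median 13.4%) and 46.8% to 79.0% in tumours (median 60.3%). The Cdkn2c share went the other way, from 42.8% to 63.2% in skin (median 52.8%) to 5.01% to 18.5% in tumours (median 13.0%).

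Of the Cip/Kip inhibitors, Cdkn1b and Cdkn1c fell in TAp63-/- cSCC, and the phosphatase gene Cdkn3 rose there. Cdkn1b, which encodes p27, stood at 52.5, 45.5 and 58.5 FPKM in WT skin, 43.0, 58.9 and 39.2 in TAp63-/- skin, 23.5 and 29.6 in WT cSCC, and 15.5, 33.9, 19.3 and 24.7 in TAp63-/- cSCC. No tumour reached the skin range. Its change was -1.01 (SE 0.25, adjusted p = 0.0137) in TAp63-/- mice, a call also made with sex as a covariate and lost without TAp63-/- skin replicate 2 (0.0619), and -0.95 (SE 0.30, adjusted p = 0.0664) in WT mice.

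Cdkn1c, which encodes p57, was 5.19, 6.33 and 5.59 FPKM in WT skin, 4.97, 9.32 and 6.88 in TAp63-/- skin, 2.93 and 1.54 in WT cSCC, and 1.83, 1.82, 3.29 and 0.522 in TAp63-/- cSCC. All tumours were below skin, with changes of -1.55 (SE 0.33, adjusted p = 0.0058) in TAp63-/- and -1.08 (SE 0.39, adjusted p = 0.0976) in WT mice. With sex as a covariate the first had an adjusted p of 0.0865. Cdkn3, a phosphatase that acts on Cdk2 and Cdk1, was 5.49, 5.83 and 4.99 in WT skin, 3.98, 4.59 and 3.90 in TAp63-/- skin, 17.0 and 8.64 in WT cSCC, and 6.502, 12.4, 21.3 and 13.2 in TAp63-/- cSCC. All tumours were above skin. The changes were 1.38 (SE 0.32, adjusted p = 0.0105) in TAp63-/- and 1.03 (SE 0.39, adjusted p = 0.109) in WT mice, and the first had an adjusted p of 0.362 with sex as a covariate.

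None of the Cdc25 phosphatases or the inhibitory kinases Wee1 and Pkmyt1 was called. Cdc25b, which acts at entry into mitosis, was 10.9, 13.3 and 11.7 FPKM in WT skin, 10.7, 10.1 and 11.9 in TAp63-/- skin, 20.3 and 16.6 in WT cSCC, and 14.6, 8.13, 15.2 and 26.4 in TAp63-/- cSCC. All tumours except TAp63-/- cSCC replicate 2, the lowest library of all, were above skin. Cdc25c, another mitotic phosphatase, had the largest change of the class in both genotypes. It was 5.78, 5.04 and 3.74 FPKM in WT skin, 2.43, 5.50 and 6.15 in TAp63-/- skin, 16.4 and 5.01 in WT cSCC, and 5.79, 6.91, 11.5 and 6.86 in TAp63-/- cSCC. One tumour of each genotype lay within the skin range, and the changes were 0.82 (adjusted p = 0.264) and 0.65 (adjusted p = 0.224).

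Pkmyt1, the membrane-bound inhibitory kinase, was 4.02, 3.94 and 2.68 FPKM in WT skin, 2.59, 1.98 and 2.83 in TAp63-/- skin, 6.48 and 3.82 in WT cSCC, and 3.66, 3.27, 4.89 and 5.96 in TAp63-/- cSCC. TAp63-/- tumours were all above TAp63-/- skin, with a change of 0.63 (SE 0.23, adjusted p = 0.066). Wee1, its nuclear counterpart, was 4.48, 6.22 and 6.83 in WT skin, 8.27, 6.98 and 7.39 in TAp63-/- skin, 6.73 and 3.00 in WT cSCC, and 10.02, 6.53, 5.32 and 4.55 in TAp63-/- cSCC. Tumours spread on both sides of skin, and the changes were -0.28 (adjusted p = 0.624) and -0.22 (adjusted p = 0.599).

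Neither pocket protein analysed was called. Rbl1 (p107), whose own gene is an E2F target, ranged from 5.05 to 9.59 FPKM in skin and from 8.77 to 25.9 in tumours, with changes of 0.96 (adjusted p = 0.138) in WT and 0.71 (adjusted p = 0.128) in TAp63-/- mice. Rbl2 (p130), the pocket protein of quiescent cells, ranged from 12.1 to 17.2 in skin and from 6.35 to 14.6 in tumours.

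Among the activator E2Fs, E2f2 fell in TAp63-/- cSCC. It stood at 8.48, 8.48 and 7.91 FPKM in WT skin, 5.11, 6.24 and 11.3 in TAp63-/- skin, 1.38 and 9.14 in WT cSCC, and 1.19, 2.07, 1.27 and 1.98 in TAp63-/- cSCC. In 5 tumours it was below all skin libraries, and in WT cSCC replicate 2 it lay within the skin range. Of the tumours, that library had the highest means of hair, muscle, adipocyte, suprabasal keratinocyte and melanocyte markers. The change was -1.65 (SE 0.42, adjusted p = 0.0143) in TAp63-/- mice, which became 0.0601 without TAp63-/- skin replicate 3 and 0.0831 with sex as a covariate. In WT mice it was -0.92 (SE 0.50, adjusted p = 0.254), and -1.97 (adjusted p = 0.0104) without WT cSCC replicate 2.

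E2f1, the founding activator of the family, was low throughout. It was 1.94, 2.41 and 2.05 FPKM in WT skin, 1.86, 2.30 and 2.44 in TAp63-/- skin, 3.19 and 2.35 in WT cSCC, and 2.57, 4.84, 3.75 and 2.60 in TAp63-/- cSCC. All TAp63-/- tumours were above TAp63-/- skin, but the change of 0.45 (SE 0.21, adjusted p = 0.131) was not called, nor that of 0.26 (adjusted p = 0.534) in WT mice. E2f3 reached 29.1 in WT cSCC replicate 1 and lay between 3.70 and 8.50 in all other libraries, so its WT change of 0.80 (adjusted p = 0.364) rests on that tumour. All TAp63-/- tumours (5.68 to 8.04) were above TAp63-/- skin (3.70 to 4.80), and that change of 0.60 (SE 0.45, adjusted p = 0.352) was not called.

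The atypical E2Fs, E2f7 and E2f8, which bind DNA without a DP partner and repress E2F targets, rose in tumours. E2f7 (chr10:110745439-110787384) was called in both genotypes and was the only E2F called in WT mice. The 250 bases before its RefSeq start (chr10:110745189-110745438, GRCm38.p6, plus strand, 5′ to 3′) are shown because they hold an E2F motif match, in capitals, on the minus strand 198 bases before the start.
E2f7: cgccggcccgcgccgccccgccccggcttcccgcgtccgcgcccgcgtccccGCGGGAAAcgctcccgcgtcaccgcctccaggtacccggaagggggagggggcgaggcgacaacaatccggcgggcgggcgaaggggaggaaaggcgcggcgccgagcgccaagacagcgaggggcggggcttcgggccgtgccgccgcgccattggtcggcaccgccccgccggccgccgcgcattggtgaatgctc

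E2f7 was 2.48, 1.38 and 1.56 FPKM in WT skin, 0.637, 1.03 and 2.32 in TAp63-/- skin, 11.1 and 9.01 in WT cSCC, and 4.90, 3.08, 15.8 and 11.3 in TAp63-/- cSCC. All tumours were above skin, the lowest being TAp63-/- cSCC replicate 2. The change was 1.99 (SE 0.53, adjusted p = 0.0354) in WT and 1.92 (SE 0.44, adjusted p = 0.0098) in TAp63-/- mice. The WT call was lost on leaving out any single WT library (adjusted p 0.0595 to 0.197), and the TAp63-/- adjusted p was 0.195 with sex as a covariate. E2f8 was 3.48, 4.02 and 2.75 FPKM in WT skin, 1.82, 3.01 and 4.53 in TAp63-/- skin, 17.9 and 6.71 in WT cSCC, and 14.1, 5.86, 7.28 and 11.0 in TAp63-/- cSCC. It too had every tumour above skin, with changes of 1.34 (SE 0.36, adjusted p = 0.0198) in TAp63-/- and 1.46 (SE 0.43, adjusted p = 0.053) in WT mice. The E2f8 call was lost without TAp63-/- skin replicate 1 (0.0891) or replicate 2 (0.0562).

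E2f4, E2f5 and E2f6, repressors that work with pocket proteins (E2f4, E2f5) or Polycomb complexes (E2f6), were not called. E2f4, the most abundant of them per length, ranged from 12.5 to 18.4 FPKM in skin and from 16.6 to 51.2 in tumours. Its changes were 1.03 (adjusted p = 0.101) in WT and 0.87 (adjusted p = 0.0599) in TAp63-/- mice. With sex as a covariate the latter was 1.69 (adjusted p = 0.0143). The sex term rests on the male tumour, TAp63-/- cSCC replicate 1, which held the 51.2 FPKM, beside 16.6 to 28.7 in the other TAp63-/- tumours. E2f6 had changes of -0.02 and -0.36 (adjusted p = 0.953 and 0.0971).

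Promoter windows of 250 bases before the start were searched for the E2F motifs TTTGGCGC, TTTGCCGC, TTTCGCGC and TTTCCCGC on both strands. Of 45 windows of the 39 members with a RefSeq entry, 7 (15.6%) held one, beside 611 of 32851 windows of all genes (1.86%). The members were Cdc25a, Cdk1, Cdk2, Cdkn2a, E2f3, E2f7 and Rbl1. Of these 7 genes, Cdkn2a and E2f7 were called, in both genotypes. Over all tested members, 12% were called in WT cSCC and 32% in TAp63-/- cSCC, beside 11.4% and 27.2% of all tested genes. The CHR motif TTTGAA, known from late cell cycle promoters, was in 10 windows (22.2%), beside 16% of all windows. Those members were Ccnb2, Ccnf, Cdk1, Cdk16, Cdkn2b, Cdkn3, E2f2, E2f3, E2f8 and Rbl2. E2f2 fell in TAp63-/- cSCC, and Ccnf, Cdkn3 and E2f8 rose there. A match is a description of the letters in the window and not a binding site, and whether it goes with a call was not tested.

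Of the 13 other CDKs, which act in transcription, in differentiated cells or in roles less well described, Cdk17 and Cdk8 rose in tumours of both genotypes. Cdk17 (chr10:93160876-93241342), a kinase of the PCTAIRE family, was 3.43, 3.22 and 2.37 FPKM in WT skin, 2.29, 3.05 and 3.73 in TAp63-/- skin, 9.07 and 10.51 in WT cSCC, and 6.86, 8.77, 9.77 and 9.14 in TAp63-/- cSCC. The groups were far apart relative to their spread. The change was 1.44 (SE 0.22, adjusted p = 0.00316) in WT mice and 1.27 (SE 0.19, adjusted p = 0.000725) in TAp63-/- mice, the lowest adjusted p of any member in each. The TAp63-/- call was made under every alternative, and the WT call was lost with sex as a covariate.

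Cdk8 (chr5:146231230-146302874), the kinase of the Mediator complex, was 6.45, 6.14 and 4.74 FPKM in WT skin, 5.74, 6.57 and 8.63 in TAp63-/- skin, 16.5 and 12.6 in WT cSCC, and 11.99, 13.1, 25.5 and 20.7 in TAp63-/- cSCC. All tumours were above skin. Its changes of 1.20 (SE 0.31, adjusted p = 0.0327) in WT and 1.19 (SE 0.26, adjusted p = 0.00734) in TAp63-/- mice were nearly equal. The WT call was lost on leaving out WT cSCC replicate 1 (0.217) or any WT skin library (0.0636 to 0.115), and the TAp63-/- adjusted p was 0.213 with sex as a covariate. Its Mediator paralogue Cdk19 was not called and had negative changes: 8.17 to 11.8 FPKM in skin and 6.01 to 8.13 in tumours, with changes of -0.57 (adjusted p = 0.0804) and -0.41 (adjusted p = 0.0813).

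Cdk14, a kinase that works with cyclin Y in Wnt signalling, had the largest change of these CDKs in both genotypes. It was 9.47, 11.3 and 15.6 FPKM in WT skin, 14.5, 8.82 and 17.5 in TAp63-/- skin, 3.28 and 4.08 in WT cSCC, and 2.35, 10.2, 2.51 and 3.19 in TAp63-/- cSCC. TAp63-/- cSCC replicate 2 stood within the skin range and the other 5 tumours below it. The change was -1.54 (SE 0.40, adjusted p = 0.0162) in TAp63-/- and -1.46 (SE 0.48, adjusted p = 0.0721) in WT mice. The call was lost without TAp63-/- skin replicate 1 (0.0604) or replicate 3 (0.0626). Cdk5, best known in neurons, was 4.43, 3.80 and 3.79 in WT skin, 4.49, 4.02 and 4.11 in TAp63-/- skin, 5.72 and 5.10 in WT cSCC, and 6.97, 4.93, 8.39 and 5.97 in TAp63-/- cSCC. Every tumour was above skin, though the TAp63-/- change was small, 0.52 (SE 0.18, adjusted p = 0.0485), and its call was lost on leaving out any TAp63-/- library but cSCC replicate 2 (0.0686 to 0.128).

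The remaining 8 of these CDKs were not called. The transcriptional kinases Cdk12 and Cdk13 had all tumours above all skin libraries, with TAp63-/- changes of 0.54 (adjusted p = 0.0513) and 0.46 (adjusted p = 0.0643). Cdk7, the CDK-activating kinase, was between 3.06 and 5.14 FPKM in all libraries, with changes of -0.02 and 0.00. Cdkn2aipnl ranged from 11.7 to 17.9 FPKM in skin and from 18.1 to 27.8 in tumours, with a change of 0.50 in each genotype (adjusted p = 0.174 and 0.0715), and Cdkn2aip lay between 3.79 and 6.97 throughout.

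Of 30 partners of the CDK machinery outside the members (Cks subunits, ubiquitin ligase parts, DREAM complex and others), 1 rose and 1 fell in WT cSCC, and 4 rose and 1 fell in TAp63-/- cSCC. Their median changes were 0.17 and 0.32. Over all tested genes, 4.66% were called higher and 6.77% lower in WT cSCC, and 13% higher and 14.2% lower in TAp63-/- cSCC. Ccng1, a p53-induced cyclin, fell in both genotypes. It stood at 59.9, 67.8 and 67.0 FPKM in WT skin, 110, 93.8 and 91.0 in TAp63-/- skin, 23.5 and 29.3 in WT cSCC, and 36.3, 28.6, 32.1 and 19.1 in TAp63-/- cSCC. Its change was -1.27 (SE 0.25, adjusted p = 0.00924) in WT and -1.76 (SE 0.21, adjusted p = 0.000184) in TAp63-/- mice, and all tumours were below skin. The gene that rose in WT cSCC was Cdc14b, a phosphatase opposing CDKs, by 1.18 (SE 0.29, adjusted p = 0.0274). Without WT cSCC replicate 1, the WT adjusted p was 0.0936 for Ccng1 and 0.183 for Cdc14b, and with sex as a covariate 0.271 and 0.327. The Cdc14b call was also lost without WT skin replicate 1 (0.0861) or replicate 2 (0.0856). In TAp63-/- cSCC, Cdc20, an activator of the anaphase-promoting complex, rose by 1.37 (SE 0.29, adjusted p = 0.00628), Tfdp1, the DP partner of E2Fs, by 1.04 (SE 0.28, adjusted p = 0.0181), and the CDK-binding subunits Cks2 and Cks1b by 1.12 (SE 0.33, adjusted p = 0.0271) and 1.09 (SE 0.34, adjusted p = 0.0358). The Cks1b and Cks2 calls were each lost without TAp63-/- cSCC replicate 1, 3 or 4 or skin replicate 1 (adjusted p 0.0503 to 0.118), and the Tfdp1 call without skin replicate 1 (0.0803). With sex as a covariate all 4 of these calls were lost (0.151 to 0.268).

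Genes that work in S phase and mitosis had positive median changes in tumours of both genotypes. Of 20 S phase genes, 0 were called in WT and 3 rose in TAp63-/- cSCC, with median changes of 0.73 and 0.60. Of 16 mitosis genes, 0 were called in WT and 5 rose in TAp63-/- cSCC, with medians of 0.88 and 0.72. None of either list was called lower. Over all tested genes, 4.66% were called higher in WT and 13% in TAp63-/- cSCC.

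In skin no member was called between the genotypes. Comparing TAp63-/- with WT skin, limma called 0 of 50 members, beside 0.0203% of all tested genes. At an unadjusted p below 0.05 there were 2 members (4%) beside 5% of all genes, 18 (36%) had a change above 0 beside 53.3%, and no alternative brought a member past the threshold. E2f6, the Polycomb-associated E2F, was 6.91, 7.44 and 5.71 FPKM in WT skin and 9.90, 9.07 and 8.48 in TAp63-/- skin. Every TAp63-/- library was above every WT library, and the change was 0.40 (SE 0.14, adjusted p = 0.923). Cdkn3, whose values stand above, was lower in every TAp63-/- skin library, with a change of -0.32 (SE 0.12, adjusted p = 0.923). Wee1 and Cdk20 also had all TAp63-/- skin libraries above WT skin, so that 3 members (6%) were higher without overlap, beside 6.77% of all genes, and 1 (2%) lower, beside 3.85%.

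In tumours no member was called between the genotypes either. Between TAp63-/- and WT cSCC, 0 of 50 members were called, beside 0% of all tested genes, and 0 had an unadjusted p below 0.05, beside 2.84% of all genes. A change above 0 was found in 22 members (44%), beside 53.3% of all genes. No member separated the 2 WT from the 4 TAp63-/- tumours without overlap, while 5.71% of all genes did so upwards and 4.14% downwards. The intervals were wide: the change was 0.56 for Cdk6 (95% interval -0.30 to 1.42), -0.92 for E2f2 (-2.26 to 0.42), -0.61 for Ccnd1 (-2.31 to 1.10) and -0.32 for Cdkn2a (-1.51 to 0.87).

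The tumour-skin changes were also not shown to differ between genotypes. The genotype by tissue interaction called 0 members, beside 0.0271% of all genes, and 0 members had an unadjusted p below 0.05, beside 3.01%. The 10 members that were called in TAp63-/- mice and not in WT mice are therefore not shown to respond only there. For Cdk6 the difference between the 2 changes was 0.55 (95% interval -0.37 to 1.46), for Ccnd1 -1.05 (-2.90 to 0.80) and for Cdkn2a -0.85 (-2.55 to 0.85).

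**Figure D4:**
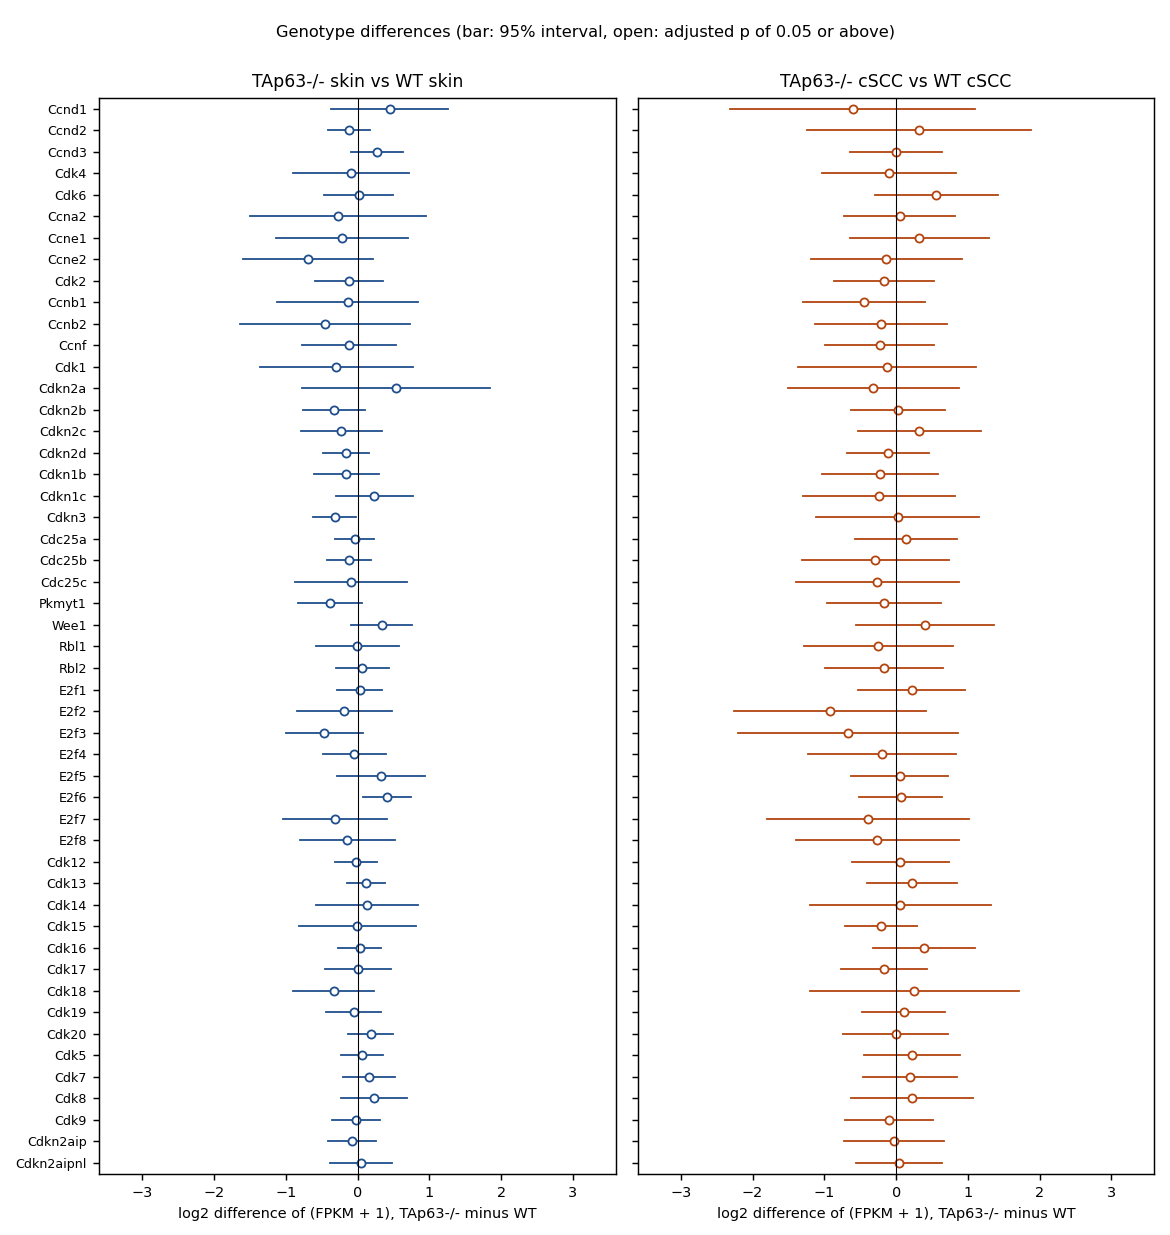
Log2 difference of FPKM + 1 between TAp63-/- and WT for the 50 tested members in skin (left) and cSCC (right), with 95% intervals from limma. All points are open, with an adjusted p of 0.05 or above; E2f6 and Cdkn3 are the members whose skin interval does not include 0.

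Libraries of one group differed among themselves in the same members. In skin, TAp63-/- replicate 1 was the lowest of the 6 libraries for 23 of 50 members (46%), beside 21.9% of all tested genes, and TAp63-/- replicate 3 was the highest for 20 (40%), beside 19.2%. Ccna2, Ccnb1, Ccnb2, Cdk1, Ccnf, Cdc25c, E2f1, E2f2, E2f8 and Rbl1 were among the members lowest in the former and highest in the latter. Hair matrix and shaft genes moved with them: the mean log2(FPKM + 1) of that list was 1.07 in TAp63-/- skin replicate 1, 4.51 in replicate 2 and 5.87 in replicate 3, and 6.94, 5.71 and 3.27 in the WT skin libraries. The mean of the mitosis genes was 2.22, 3.02 and 3.52 in TAp63-/- skin and 3.19, 3.23 and 2.93 in WT skin. TAp63-/- skin replicate 1 also had the lowest melanocyte mean of the skin libraries (2.02, beside 3.52 to 4.37) and the highest means of muscle (9.16, beside 8.40 to 8.57), suprabasal keratinocyte (8.73, beside 7.63 to 8.35), fibroblast (8.23, beside 7.005 to 8.07) and adipocyte markers (7.41, beside 5.01 to 6.67). The part of hair follicles and of these other cells in the members' levels was not tested. Without TAp63-/- skin replicate 1 the genotype difference of Ccna2 in skin turned from -0.28 to 0.29 and that of Cdk1 from -0.30 to 0.14, none of them called.

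In tumours, WT cSCC replicate 1 was highest for 14 members (28%), beside 18.1% of all genes, among them Ccna2, Ccnb1, Ccnb2, Ccnd1, Cdk1, E2f3, E2f8 and Cdkn2a. TAp63-/- cSCC replicate 1, the male tumour, was lowest for 16 (32%), beside 18.1%, and yet highest for Ccne1 and E2f4. TAp63-/- cSCC replicate 2 was lowest for 15 (30%), beside 22.4%, including Ccne1, E2f7 and E2f8. The mitosis mean was 4.45 and 3.48 in WT cSCC and 3.19, 3.50, 4.04 and 4.08 in TAp63-/- cSCC, and the hair mean was 0.91 and 6.28, and 0.97, 3.54, 0.86 and 2.97.

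**Figure D5:**
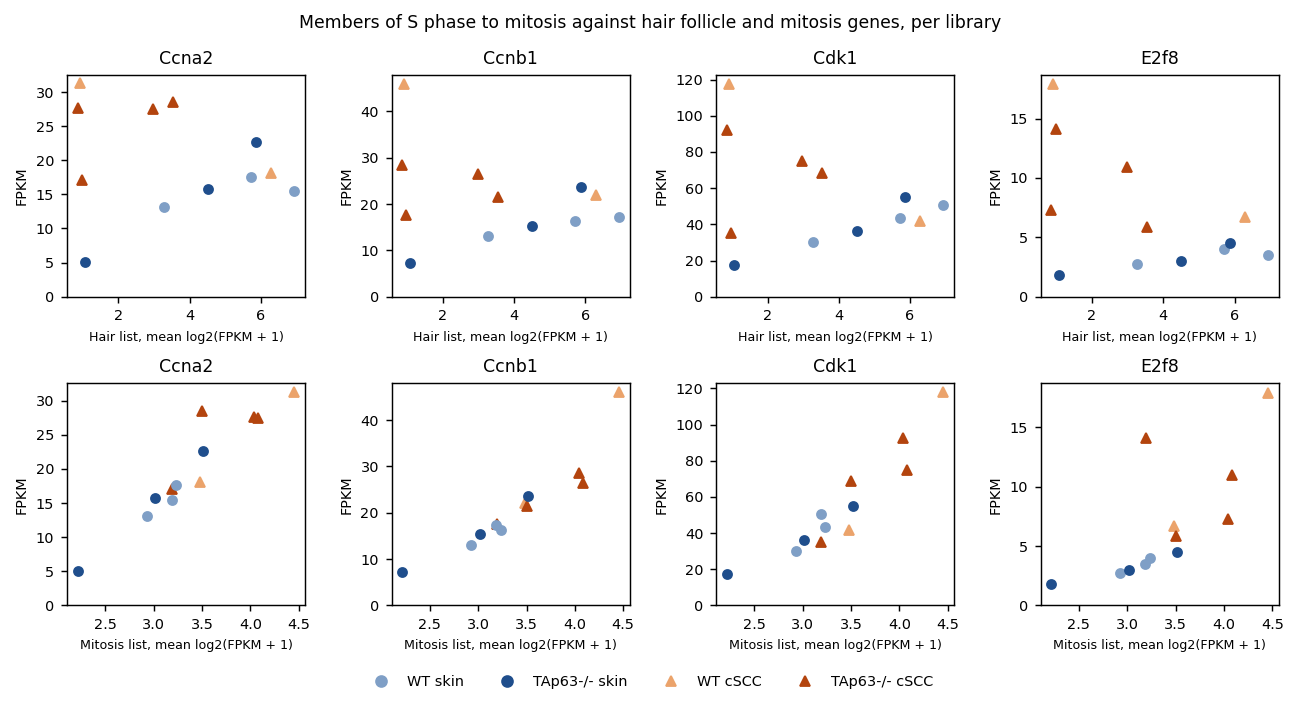
FPKM of Ccna2, Ccnb1, Cdk1 and E2f8 in each of the 12 libraries against the hair list (top) and the mitosis list (bottom), each as its mean log2(FPKM + 1). Among skin libraries (circles), TAp63-/- skin replicate 1 is lowest on all axes with a hair mean of 1.07, and among tumours (triangles) WT cSCC replicate 1 has the highest values of all 4 members.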

How the data were processed

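Per the labels' protocols, total RNA was extracted with the Ambion miRVANA kit and libraries were made with the Illumina TruSeq RNA kit. Reads were processed with TopHat2 2.0 and Cufflinks 2.0 on mm10, according to the submitters' processing notes. No source names the unit of the deposited values, which were taken as FPKM from the use of Cufflinks and from their range. All 12 deposited columns share 1 distribution, from which quantile normalization by the authors was inferred; it hides depth and any global shift in RNA, so no counting intervals are given.

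Values of 1 symbol were summed. One further CDK inhibitor gene was left out by the rule and is not reported here. Log2(FPKM + 1) was fitted with limma 3.58.1 (R 4.3.3) with a variance trend, for genes that reached 1 FPKM in 2 or more of 12 libraries. Genotypes within a tissue were compared on the libraries of that tissue, tumour with skin and the interaction on all 12. The fits were tested on simulated data with 100 genes changed 2-fold and 100 changed 4-fold in FPKM + 1, all with a mean of 5 FPKM or more. Of these, 1 and 31 were called for TAp63-/- against WT cSCC, and 4 and 53 for the interaction. WT cSCC against WT skin gave 15 and 78, TAp63-/- cSCC against TAp63-/- skin 33 and 85, and TAp63-/- against WT skin 55 and 80. The lack of called members between tumour genotypes and for the interaction thus says little about changes near 2-fold. No gene with a mean below 5 FPKM was given a change, so these shares do not cover members at such levels. Unchanged genes made up 13 of 148 calls for TAp63-/- against WT skin. They were 2 of 95 for WT and 6 of 124 for TAp63-/- cSCC against skin, 1 of 33 between tumour genotypes and 4 of 61 for the interaction. Replicates were numbered in accession order. Members called in any comparison and a set of core regulators are given in every library, the rest by counts and ranges with the largest change of each role class. Members, lists and rules were chosen with earlier results of these data known. Promoter sequences are from RefSeq (GRCm38.p6), and 13 members had no entry. Of 52 members, 21 had the same coordinates as in GENCODE M21, and 8 (Ccna2, Ccnd1, Ccnd3, Ccne2, Cdc25b, Cdk4, Pkmyt1 and Rbl2) overlap, in the deposited coordinates, a tested protein-coding gene on the opposite strand. Whether counting used strand is not stated, so reads in those overlaps cannot be told apart. Alternatives changed the pseudocount (0.1), the filter (none, or a mean of 5 FPKM), the scaling (median of ratios), library weights, the libraries in the fit and sex as a covariate, and left out each library in turn.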

Additional observations from a re-analysis of the deposited data

Results flagged for a closer look

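Within the 4 TAp63-/- tumours, 6 of 50 members had 1 library far from the other 3 relative to their range (12%), beside 9.26% of all tested genes. The cut-off is set to flag about 1 in 20 of normally distributed values. The FPKM values were used without a log scale, so the share over all tested genes is the background here. Ccna2 was low in replicate 1 (17.1 FPKM). Ccne2 (94.6), Ccnf (7.09) and Cdk2 (22.3) were high in replicate 4. Cdk14 (10.2) and Cdk18 (9.07), a PCTAIRE kinase, were high in replicate 2. The other groups have too few libraries for this check.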

How the results depend on the processing

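The number of members called in WT cSCC against WT skin (6) was 3 with no filter on low values, 11 with only the 5 libraries compared in the fit and 1 with sex as a covariate. It ran from 1 to 12 on leaving out single libraries. In TAp63-/- mice (16) it was 7 with sex as a covariate and ran from 11 to 22 on leaving out single libraries. The cause of these shifts was not tested. Sex nearly follows tissue, and its term rests on 1 male tumour in both comparisons. For TAp63-/- against WT skin, TAp63-/- against WT cSCC and the interaction, the count was 0 in every alternative. Of 29 calls of members and partners, 3 (Ccne1, Cdk17 and Ccng1, all in TAp63-/- mice) were made in every alternative. With no filter, Ccne1, Cdk8 and E2f7 in WT mice and Ccnd2, Ccnf and Cdk5 in TAp63-/- mice lost their calls, as did Cdc14b in WT and Cks1b in TAp63-/- mice. With only the libraries compared in the fit, Ccnd2, Ccnf, Cdk5, Cdk14, Cks1b, Cks2 and Tfdp1 lost theirs in TAp63-/- mice. Median-of-ratios scaling ended the calls of Ccnf and Cdk5, and array weights those of Ccne1 in WT (adjusted p = 0.0729) and Cks1b in TAp63-/- mice (0.0505), and a mean of 5 FPKM that of Cdk5 (0.078). No called change reversed its sign. No paired analysis was made, because each title holds its own identifier and the labels link no tumour to a skin sample. Depth is unknown, and with 2 WT tumours the WT intervals are wide.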
